A study of Mus musculus with 10 samples.

Results

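ZFP266 peaks in gene deserts are the DamID-seq peaks of the deposited list, on mouse autosomes in GRCm38, whose midpoint was in no gene and lay more than 200 kb from the start of every curated RefSeq transcript. They were 726 of the 15119 peaks in the list, and 726 of the 7596 autosomal peaks with a midpoint outside genes. The other 6870 intergenic peaks, all with a transcript start within that distance, are the peaks they are described against. A gene here is the extent of a curated RefSeq transcript, of which the autosomes held 43783.

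The study mapped ZFP266 binding sites in mouse embryonic fibroblasts (MEFs) of the 129 strain by DamID-seq, in which Dam methylates the adenine of GATC sequences near the protein that carries it. MEFs were nucleofected with the plasmid PGK-mO-Dam-Zfp266 (5 samples) or, for the background of Dam alone, with PGK-mO-Dam (5 samples), and marker-positive cells were sorted 48 h later. In both plasmids the PGK promoter drives mOrange as the leading reading frame, and Dam or Dam-ZFP266 is made only where translation starts again behind it, which keeps the level low. The sites are those of a fusion protein made from a plasmid in cells that also have their own ZFP266. Each library was made from 32 ng of genomic DNA. The list pools the 10 samples, so no value of a single sample was available. How deeply each was sequenced is not known, and no spread between replicates and no test over samples was computed. Intervals below are 95% intervals that treat peaks as independent counts. They cover counting error only, and neighbouring peaks are not independent of each other.

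ZFP266 is a zinc finger protein with a KRAB domain, and many proteins of this family bind transposable elements and recruit corepressors that compact chromatin. Gene deserts are long stretches with no gene, mostly poor in G and C, and some of them hold enhancers that act over long distances on a developmental gene at their border. B1 elements are short interspersed repeats (SINEs) of rodents that lie mainly in gene-rich, GC-rich DNA, and AP-1, made of JUN and FOS proteins, is an activator that binds many distant enhancers of fibroblasts.

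Gene deserts were sparsely bound. They made up 17.1% of the ungapped autosomal sequence (409 Mb, beside 993 Mb of other intergenic sequence) and held 4.92% of the autosomal peaks. The density was 1.78 peaks per Mb (interval 1.65 to 1.91) in gene deserts, 6.92 per Mb (6.75 to 7.08) in other intergenic sequence and 7.21 per Mb (7.04 to 7.38) in genes. The ratio of gene desert to other intergenic density was 0.257. A DpnII fragment is the stretch between neighbouring GATC sites, the unit in which reads were counted. In gene deserts 0.128% of these fragments lay in a peak, while the share was 0.514% in other intergenic sequence, 0.619% in genes and 0.488% on all autosomes. GATC sites were about as frequent in both intergenic classes, with a median fragment of 249 bp in gene deserts and 253 bp elsewhere between genes.

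The low density was present on each of the 19 autosomes, with a ratio from 0.0435 on chromosome 19 to 0.448 on chromosome 7. Chromosome 19 had 2 gene desert peaks and chromosome 4 had 69, the highest number. Per Mb of gene desert, chromosome 13 was highest at 3.29 and chromosome 10 next at 3.02. Density fell stepwise with distance from the nearest transcript start. It was 10.2 peaks per Mb for intergenic sequence within 10 kb of a start and 3.94 from 100 to 200 kb. Inside the gene deserts the fall went on, with 2.45 peaks per Mb from 200 to 300 kb (293 peaks), 1.99 from 300 to 500 kb (265 peaks), 1.18 from 500 to 1000 kb (139 peaks) and 0.756 beyond (29 peaks, interval 0.506 to 1.09).

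Density also moved with base composition. The surroundings of the gene desert peaks, taken as 100 kb about the midpoint, had a median GC content of 38.7%, and those of the other intergenic peaks 44.1%. Where the surroundings held 36 to 37% GC, the density was 1.16 peaks per Mb in gene deserts and 1.38 in other intergenic sequence, with overlapping intervals. At 39 to 40% GC it was 2.41 and 3.80, and at 44% GC or more it was 3.23 (2.30 to 4.39) and 11.8 (11.4 to 12.2). Below 36% GC the order was the opposite (1.23 and 0.976), with overlapping intervals and 7 peaks in the other intergenic class. With the other intergenic class weighted to the local GC content of the gene deserts, a calculation chosen after seeing the data, the density ratio was 0.601 instead of 0.257. The share of the difference that base composition accounts for was not tested otherwise.

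Whether these regions are deserts depended on the annotation. When every RefSeq transcript and gene was counted, predicted ones included, 74 of the 726 peaks still met the rule, and 35 did when GENCODE was added. A GENCODE gene covered the midpoint of 94 of the peaks, and for 80 of them it was a long intergenic non-coding RNA. The name gene desert therefore means here that curated transcript starts are far away, and it does not say that the DNA is untranscribed. The rule's threshold cut through groups of neighbouring peaks. Just inside it lay chr8:125289941-125295580, 200072 bp from the nearest start with a signal value of 0.529, and chr14:13022976-13023474 at 200146 bp with 0.996. Just outside it lay chr6:32786906-32788695 at 199609 bp with 0.924, and chr14:13021300-13022868 at 199005 bp with 1.13. The pair on chromosome 14 is separated by 107 bp.

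In strength, gene desert peaks were close to the other intergenic peaks. The signal value is the peak caller's own measure of Dam-ZFP266 over Dam alone, and its scale is not stated for this list. The authors' methods give a false discovery rate under 0.05 and a log2 fold change above 1 as example limits for bound regions, without saying that the signal value is this fold change. Its median was 0.897 (0.875 to 0.914) in gene deserts and 0.911 (0.905 to 0.918) in the other intergenic peaks. The median −log10 q was 1.29 (1.27 to 1.33) and 1.34 (1.33 to 1.35), lower in gene deserts on 15 of the 19 autosomes. The lowest −log10 q among gene desert peaks was 1.00, so the list also holds peaks with a q above 0.05. A q under 0.05 was reached by 354 gene desert peaks (48.8%, beside 53.3% of the other intergenic peaks). A q under 0.05 together with a signal value above 1 was reached by 194 gene desert peaks (26.7%), beside 28.4% of the other intergenic and 26.2% of all autosomal peaks. The signal value did not follow the distance to the nearest start among the 726 peaks (Spearman rho -0.0219, as a description), but it was lower in longer peaks (rho -0.414, beside -0.364 in the other intergenic peaks).

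Gene desert peaks were slightly longer. The median was 1892 bp (1823 to 1984) beside 1756 bp (1727 to 1783), and the median was higher on 15 of the 19 autosomes. Among peaks with surroundings under 40% GC the order turned, with 1943 bp and 1970 bp and overlapping intervals. Every peak of both classes began and ended at a GATC site. A single fragment made up 416 of the gene desert peaks (57.3%, beside 56.9%), and 53 (7.30%, beside 6.11%) were 4 kb or longer. The longest was chr1:110478665-110485523, 6859 bp of 7 fragments between the cadherin genes *Cdh7* and *Cdh19*, with a signal value of 0.713. The next, chr1:81926525-81932710 (6186 bp, signal value 0.511), lay between *Nyap2* and *Irs1*, the latter an adaptor of the insulin receptor. The last of these 3, chr6:76136689-76142865 (6177 bp, signal value 0.666), lay on the side of *Ctnna2*, a catenin of neuronal junctions, that faces *4931417E11Rik*. All 3 were below the median signal value of the gene desert peaks.

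B1 SINEs were much rarer in gene desert peaks than in the other intergenic peaks. A B1 SINE, or a part of one, was present in 88 gene desert peaks (12.1%, interval 9.94 to 14.7%) and in 2282 other intergenic peaks (33.2%, 32.1 to 34.3%). The difference was -21.1 percentage points (-23.5 to -18.3), and the share was lower in gene deserts on all 19 autosomes. The share also fell with distance among the other intergenic peaks, from 44.0% within 10 kb of a start to 16.2% from 100 to 200 kb, and was 11.3%, 13.6%, 11.5% and 10.3% in the 4 distance classes of the gene deserts.

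Gene deserts also hold few B1 SINEs as a whole. There were 39.9 elements per Mb in them and 113 per Mb in other intergenic sequence. Over all stretches of the same lengths that begin at a GATC site, 7.47% held a B1 SINE in gene deserts and 17.0% in other intergenic sequence. The share in peaks was thus 1.62 times (1.33 to 1.97) that of such stretches in gene deserts and 1.95 times (1.89 to 2.02) in the other class, and these intervals overlap. The difference in B1 share was smaller in GC-poor surroundings. With surroundings under 40% GC, 11.1% (8.67 to 14.2%) of 503 gene desert peaks and 18.8% (16.2 to 21.7%) of 761 other intergenic peaks held a B1 SINE, a difference of -7.66 points (-11.5 to -3.64). Below 36% GC the order was the opposite, with 20.6% of 34 and 14.3% of 7 peaks and overlapping intervals.

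Seen from the elements, 83 of the 16290 B1 SINEs of the gene deserts (0.510%, 0.411 to 0.631%) had their midpoint in a peak. In other intergenic sequence the share was 2.76% (2.67 to 2.86%). Of all DpnII fragments, too, fewer lay in a peak in gene deserts (0.128%, beside 0.514%), so a lower share was not particular to B1 SINEs. Among the B1 SINEs of the gene deserts the share was 0.225% at 70 to 80% identity to the consensus and 0.505% at 80 to 90%. It was 0.587% at 90 to 95% and 0.691% at 95% or more. The intervals are wide because 6, 25, 45 and 7 elements lie behind these values. The best B1 SINE of a gene desert peak had a median identity of 91.3% (90.1 to 92.0%), beside 92.4% (92.3 to 92.8%). Elements at 95% or more were the best one in 7 of the 88 peaks (7.95%, 3.91 to 15.5%), beside 20.1% (18.5 to 21.8%) of the other intergenic peaks with a B1 SINE. Of all B1 SINEs of the class, 6.22% reached this identity in gene deserts and 11.4% in other intergenic sequence. The median identity of all elements was 90.2% and 88.1%. These class values cover every element, while the peak values take only the best one of each peak, so they are unlike measures. More than 1 B1 SINE was present in 1 of the 88 peaks, while 728 of the 2282 other intergenic peaks had several. B1 SINEs were not gathered at the midpoints of the gene desert peaks. They covered 0.665% of bases within 500 bp of the midpoint and 0.627% at 4 to 5 kb from it, while in the other intergenic peaks the values were 3.13% and 2.46%.

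The AP-1 word was the most frequent of the motifs searched in gene desert peaks. The word TGACTCA, which reads TGAGTCA on the other strand, was present in 362 gene desert peaks (49.9%, 46.2 to 53.5%) and in 3151 other intergenic peaks (45.9%, 44.7 to 47.0%). The difference was 4.00 points (0.182 to 7.81), higher in gene deserts on 12 of the 19 autosomes, and under nearly all alternatives its interval included 0. The other intergenic peaks far from a start had such a share too. It rose from 40.9% within 10 kb of a start to 49.7% from 50 to 100 kb and 51.0% from 100 to 200 kb, and was 49.5%, 50.2%, 51.1% and 44.8% in the 4 distance classes of the gene deserts. The higher share was therefore not particular to gene deserts. Among peaks with surroundings under 40% GC the order was the opposite, with 49.7% in gene deserts and 53.7% in the other class. The interval of this difference (-9.64 to 1.58) included 0. Below 36% GC the share was higher in gene deserts (44.1% of 34 peaks and 28.6% of 7), with overlapping intervals.

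Gene desert DNA itself held fewer AP-1 words, 0.144 per kb beside 0.169 per kb in other intergenic sequence. The word was present in 22.3% of all gene desert stretches of the same lengths beginning at a GATC site and in 25.1% of such stretches in other intergenic sequence. The share in peaks was therefore 2.23 times (2.07 to 2.39) that of the stretches in gene deserts and 1.83 times (1.78 to 1.87) in the other class, and these intervals do not overlap. The stretches were matched for length and not for GC content, here and for the other features. With the other intergenic peaks weighted to the local GC content of the gene desert peaks, their AP-1 share was 51.2%, beside 49.9% in gene deserts. The part of base composition in the higher ratio was not tested. The word TGACTGA, which is TCAGTCA on the other strand, with the letters of the AP-1 word in another order, was present in 30.7% of gene desert peaks and in 24.8% of the stretches, a ratio of 1.24 (1.11 to 1.38).

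AP-1 words were gathered at the middle of the gene desert peaks. Their density within 500 bp of the midpoint was 0.435 per kb, resting on 316 words, and 0.192 per kb at 4 to 5 kb from it, a ratio of 2.27. In the other intergenic peaks the values were 0.389 and 0.216 per kb. The gene desert peaks held 1 AP-1 word in 218 cases, 2 in 96, 3 in 38 and more in 10. The highest number, 6, was in chr1:193903569-193907216, between *Camk1g* and the semaphorin receptor gene *Plxna2*, which also had the lowest q of all gene desert peaks (q = 0.000105, signal value 1.25).

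Peaks with the AP-1 word were longer and had a lower median signal value than those without. In gene deserts they had a median length of 2176 bp (2067 to 2303) and a signal value of 0.859 (0.821 to 0.884), while peaks without it had 1676 bp (1538 to 1770) and 0.928 (0.904 to 0.953). The same order held in the other intergenic peaks, with signal values of 0.866 and 0.947. Among gene desert peaks with a B1 SINE the signal order was the opposite, 0.956 in 41 peaks with the word and 0.873 in 47 without, with overlapping intervals. Longer stretches hold the word more often. In gene deserts 9.01% of stretches matched to peaks under 1000 bp held it, and 39.3% of those matched to peaks of 3000 bp or more. The signal value was lower in longer peaks, and it was not compared at like length. Short peaks also held the word more often than short stretches did. Of 106 gene desert peaks under 1000 bp, 34 (32.1%, 24.0 to 41.5%) held it, beside 9.01% of gene desert stretches of those lengths. When the gene desert peaks were split by −log10 q into 4 groups of equal size, 61.0% (53.7 to 67.8%) of the highest group held the word and 44.2% (37.2 to 51.5%) of the lowest. The order in between was not steady, with 53.3% and then 40.9% from low to high. Median lengths were 1840 bp in the lowest and 2066 bp in the highest of these groups. Split by signal value instead, the order was the opposite. The share was 64.1% (56.9 to 70.7%) in the lowest group, then 48.9% and 47.0%, and 39.6% (32.7 to 46.8%) in the highest. Median lengths there were 2549 bp in the lowest and 1620.5 bp in the highest group. The part of length in these shares was not tested.

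B1 SINE and AP-1 word were present together in 41 gene desert peaks (5.65%), beside 15.5% of the other intergenic peaks. Of the gene desert peaks with a B1 SINE 46.6% (36.5 to 56.9%) held the AP-1 word, and of those without 50.3% (46.4 to 54.2%). Neither feature was present in 317 gene desert peaks (43.7%, beside 36.5%). The 321 gene desert peaks with the AP-1 word alone (44.2%, beside 30.3%) were the largest of the 4 groups, and they had the lowest median signal value of the 4, 0.852 (0.811 to 0.878).

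AP-1 windows are shown for 4 of the 5 gene desert peaks with the highest signal value among those that hold the word, each with the word nearest the midpoint in capitals. The peak with the highest signal value of all 726, chr8:57110084-57114630 (2.18, q = 0.00695), was 1 fragment of 4547 bp. It lay 206353 bp from *Hand2*, a transcription factor of heart and limb development, and 516145 bp from *Fbxo8* on the other side. The peak chr16:62358362-62360416 (1.80) lay between *Epha6*, an ephrin receptor, and *Nsun3*, an RNA methyltransferase of mitochondria, and held 2 AP-1 words and a B1 SINE. The peak chr10:46785628-46786664 (1.79, q = 0.000127) lay between *Hace1*, a ubiquitin ligase, and *Grik2*, a glutamate receptor subunit. The peak chr9:84204506-84207109 (1.77) lay between *Bckdhb*, an enzyme of branched-chain amino acid breakdown, and *Tent5a*. In the peak on chromosome 10 the word was 39 bp from the midpoint, and in those on chromosomes 8, 16 and 9 it was 168, 466 and 208 bp away. The windows are the plus strand of GRCm38 and all are intergenic by the curated transcripts.
AP-1 window at chr8:57112492-57112558: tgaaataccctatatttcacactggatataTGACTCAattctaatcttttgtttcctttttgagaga
AP-1 window at chr16:62358890-62358956: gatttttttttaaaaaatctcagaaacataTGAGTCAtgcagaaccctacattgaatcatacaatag
AP-1 window at chr10:46786074-46786140: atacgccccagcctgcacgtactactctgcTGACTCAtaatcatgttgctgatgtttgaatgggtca
AP-1 window at chr9:84205983-84206049: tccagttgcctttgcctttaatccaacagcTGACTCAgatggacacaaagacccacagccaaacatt

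The peak chr4:55834883-55835756 (1.87), also among the 5 strongest in gene deserts by signal value, held neither the AP-1 word nor a B1 SINE. It lay between *Klf4*, one of the reprogramming factors, and *Actl7b*, 302408 bp from *Klf4*, and 92.4% of its bases are marked as repeats (lower case) in the reference genome. Over all gene desert peaks the median share of such bases was 23.2% (21.7 to 24.5%), beside 26.6% (26.2 to 27.2%) in the other intergenic peaks. Gene deserts as a whole had more of them than other intergenic sequence, 40.7% beside 37.0%, so that peaks in both classes were poorer in marked repeats than their class.

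The other motifs differed in both directions. A KLF word (CCACACCC or CCACGCCC or CCCCACCC or CCCCGCCC, and their other strands) was present in 27.7% (24.6 to 31.1%) of gene desert peaks and 43.2% (42.1 to 44.4%) of the others, a difference of -15.5 points (-18.9 to -12.0). Against stretches of the same lengths the ratios were 1.33 and 1.40, with overlapping intervals, and with surroundings under 40% GC the shares were 24.7% and 27.1%. The octamer word ATGCAAAT (that is ATTTGCAT on the other strand) of OCT proteins went the other way, with 18.5% (15.8 to 21.4%) and 11.0% (10.3 to 11.8%). It was nevertheless rarer in peaks than in stretches, with ratios of 0.776 and 0.635. The SOX word CCATTGT, which is ACAATGG on the other strand, was present in 29.3% (26.1 to 32.8%) and 25.2% (24.2 to 26.3%), at ratios of 0.853 and 0.843. The TEAD word ACATTCCA (that is TGGAATGT on the other strand), of the factors that act with YAP, was present in 14.2% (11.8 to 16.9%) and 11.8% (11.0 to 12.6%), with ratios of 1.58 and 1.34. The RUNX word TGTGGTTT (that is AAACCACA on the other strand) was present in 17.6% and 14.8%, with ratios of 0.892 and 0.851. Among these words, AP-1 had the highest ratio to stretches in both classes. Every match is a description of letters and not a mapped site.

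Gene desert peaks were as poor in GC as the deserts themselves. Their median GC content was 38.8% (38.4 to 39.2%), close to the 38.5% of gene desert sequence, while the other intergenic peaks had 44.1% (44.0 to 44.3%) in sequence with 42.2%. They also held fewer CpG dinucleotides, a median of 4.78 per kb (4.54 to 5.05) beside 8.83 per kb (8.69 to 8.98). Both GC and CpG were lower in gene desert peaks on all 19 autosomes.

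The peaks lay far apart, and most of them lay singly. The median gap to the nearest peak of any class was 28944 bp (20110 to 41683) for gene desert peaks and 10680 bp (9909 to 11351) for the other intergenic peaks. No peak was found within 100 kb of 259 gene desert peaks (35.7%, beside 13.7%). Yet 234 of them (32.2%, 28.9 to 35.7%) had a peak within 5 kb, a share not far below the 37.3% (36.1 to 38.4%) of the other class, where the density was several times higher. Joining gene desert peaks less than 5 kb apart gave 595 loci, of which 493 were single peaks, 81 were pairs and 21 held 3 or more. The largest, with 6 peaks in 18655 bp, was chr10:55332205-55350859 between *Man1a* and *Tbc1d32*.

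Fewer deserts had a peak than had none. Taken between neighbouring protein-coding genes, the autosomes held 776 gene deserts, and 289 of them (37.2%) contained a peak. There was 1 peak in 129 of them, 3 or more in 89 and 5 or more in 35. Longer deserts were more often bound but less densely, with a peak in 36 of the 41 deserts of 2000 kb or more, at 0.954 peaks per Mb (0.780 to 1.15), and 2.67 per Mb (2.34 to 3.04) in those of 100 to 500 kb.

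The 10 deserts with most peaks are described here because of that number, so their densities are high by choice. The one with most peaks lay on chromosome 13 between *Akr1e1* and *Klf6*, a transcription factor of the same family as *Klf4*. It held 17 peaks in 849 kb (20.0 per Mb), and another 6 peaks lay in the desert on the other side of *Klf6*. The desert between *Myc*, a regulator of growth and one of the reprogramming factors, and *Gsdmc* on chromosome 15 held 16 peaks in 860 kb, from 62430529 to 63074060. On the other side of *Myc*, toward *A1bg*, lay another 6 peaks, so that 22 gene desert peaks bordered this gene. This was more than for any other gene of the lists below, which do not hold *Klf6*. The desert between *Nmbr* and *Cited2*, a transcriptional coregulator, on chromosome 10 and that between the potassium channel gene *Kcna4* and *Mettl15* on chromosome 2 held 13 each.

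Of the others, the desert between *Tnc* and *Pappa* on chromosome 4 was the most densely bound of the 10, with 12 peaks in 448 kb (26.8 per Mb). *Tnc* encodes the matrix glycoprotein tenascin C and *Pappa* a secreted protease of IGF-binding proteins. The number was 11 between *Man1a*, a mannosidase of the Golgi, and *Tbc1d32* on chromosome 10. It was also 11 between *Marcks*, an actin-binding substrate of protein kinase C, and *Rfpl4b* on the same chromosome, and between *Adamts5*, a protease that cleaves aggrecan, and *N6amt1* on chromosome 16. Between *Nudt12* and *Efna5* (ephrin A5) on chromosome 17 there were 10 peaks in 3390 kb. The desert between *Zfp608* and *Gramd3* on chromosome 18 held 10 in 1008 kb. Per Mb, the desert beside *Efna5* (2.95) was the least densely bound of the 10.

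The genes beside the deserts were followed in 2 lists. Of 109 genes for developmental transcription factors and signalling proteins, 66 bordered a gene desert. Their 80 deserts held 130 peaks, at 3.03 per Mb (2.53 to 3.60), and 40 (50.0%) had a peak. Of 71 genes for cadherins, protocadherins and other neuronal adhesion proteins, 59 bordered a gene desert, and their 86 deserts held 98 peaks at 0.906 per Mb (0.735 to 1.10), with a peak in 45 (52.3%). Over all 776 deserts the density was 1.78 per Mb (1.65 to 1.91) and the share with a peak 37.2%. Deserts beside the adhesion genes were long, 108 Mb in all beside 42.9 Mb for the developmental list, and 38 of their 56 deserts of 500 kb or more held a peak (67.9%), beside 20 of 26 (76.9%) for the developmental list and 62.6% for all deserts of that size.

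Among the developmental genes, 14 had a neighbouring desert with 3 or more peaks. Besides *Myc*, *Nr2f2*, an orphan nuclear receptor of mesenchyme and vessels, had 11 gene desert peaks on its 2 sides. *Efna5* had 10 and *Klf4* had 7. The ephrin receptor gene *Epha7* also had 7, in 3.80 Mb of desert. *Fgf9*, a growth factor, and *Tshz1*, a zinc finger factor, had 5 each, and *Inhba*, the activin A subunit, had 4 in a single desert. *Hand2*, the BMP family gene *Gdf6*, the growth factor genes *Fgf10* and *Fgf20*, and the homeobox gene *Irx1* had a desert with 3.

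Among the adhesion genes, another 14 had such a desert. *Tenm4* led with 6 peaks in 2587 kb. *Flrt2* and *Tenm3* had 5, as did the desert between *Pcdh20* and *Pcdh9*, which is 3712 kb long. A desert with 4 peaks lay beside *Cdh18*, *Cntn5*, *Ctnna2* and *Pcdh10*, and one with 3 beside *Adgrl3*, *Cdh2*, *Cntnap5a* and *Lrrc4c*. The densities of the deserts named here ran from 0.799 per Mb at *Lrrc4c* to 2.32 at *Tenm4*, while those named for the developmental list ran from 1.76 at *Epha7* to 18.6 at *Myc*.

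The peaks farthest from any start lay in the desert between *Olfm4* and the protocadherin gene *Pcdh17* on chromosome 14. They were chr14:82064728-82065383, 2010234 bp from the nearest curated start (signal value 0.841, q = 0.0822), and its neighbour chr14:82065994-82066555 (signal value 1.05, q = 0.0659), 610 bp apart. The next, chr17:61006631-61010063 (signal value 0.783, q = 0.0565), lay 1872970 bp from a start in the desert between *Nudt12* and *Efna5*. None of these 3 held an AP-1 word or a B1 SINE.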

How the data were processed

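The authors' notes name FastQC, cutadapt, BWA and GRCm38.p6, with peaks called by Daim over all samples together. They give no versions. The deposited columns are a score, a signal value (also a score, without a stated scale) and a significance: the deposited −log10 q-value was used, and the authors' −log10 p-value was not.

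Peaks were classed by midpoint with curated RefSeq transcripts of GRCm38. Members and gene lists were chosen with earlier results of these data known. B1 SINEs were found with blastn 2.17.0 (e-value up to 10; hits of 80 bp or more at 70% identity or more were kept) and a consensus built from repeated words of the genome. Motifs were exact matches on both strands. Stretches of the same length were all those of a class beginning at a GATC site, with lengths rounded to 250 bp. Shares have Wilson intervals, differences Newcombe, densities exact Poisson and medians order-statistic intervals (95%). Genes named border the 10 deserts with most peaks, the 5 strongest, 3 longest and 3 farthest peaks, or belong to the lists and border a desert with 3 or more peaks. The peak with most AP-1 words, the largest locus and *A1bg* were named after their values were seen, and the peaks with AP-1 windows by the rule for sequences. Some named items and B1 SINE sequences that these rules take are not reported here. Python 3.11.15, numpy 2.4.6, pandas 2.3.3, scipy 1.17.1 and biopython 1.88 were used, and the steps were tested on simulated regions.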

Additional observations from a re-analysis of the deposited data

How the results depend on the processing

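No paired analysis was possible because the list pools all samples and its values carry no replicate number. For the same reason no replicate was left out. The depth of the samples is unknown. Of 148 values over 17 alternatives, 90 were within the interval of the reported value and 58 were outside it, 6 of these with the opposite sign.

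The number of gene desert peaks was 1596 at 100 kb, 168 at 500 kb, 74 with every RefSeq transcript and gene, 35 with GENCODE added and 194 with q under 0.05 and signal value above 1. The density ratio stayed below 1, at 0.327 (100 kb), 0.181 (500 kb), 0.203 (every RefSeq transcript and gene) and 0.601 (weighted to local GC). The B1 difference kept its sign, at -15.1 points with B1 SINEs of 100 bp at 85% identity, -11.0 in the central 500 bp, -17.7 with GENCODE, -17.1 against other intergenic peaks over 10 kb from a start, -7.66 with surroundings under 40% GC and -9.54 weighted to local GC. The AP-1 difference was 10.8 points with GENCODE (interval -5.51 to 25.8, 35 peaks) but -4.04 under 40% GC and -1.29 weighted to local GC. It was 1.01 in the central 500 bp, 1.79 in peaks of 1 fragment, 2.16 against other intergenic peaks over 10 kb from a start and 2.40 standardised to length. Of all alternatives with an interval for it, only that at 100 kb (5.38, 2.63 to 8.14) kept the interval above 0. The KLF difference was -22.0 points at 500 kb, -28.5 with every RefSeq transcript and gene, -33.0 with GENCODE, -8.81 in the central 500 bp and -2.42 under 40% GC.

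The difference in median length was -153 bp with GENCODE and -27.0 bp under 40% GC, and that in signal value 0.0404 and 0.0167, all 4 with the sign opposite to the reported one. The GC difference was -3.84 points at 100 kb, -6.09 at 500 kb and -0.691 under 40% GC. The share within 5 kb of a peak was 37.1% with the stricter q and signal value and 40% with GENCODE. With stretches beginning at any base, the ratio for AP-1 was 2.06 in gene deserts and 1.74 elsewhere between genes. That for B1 was 1.46 in gene deserts and 1.87 elsewhere between genes. The alternatives with GENCODE, the 10 kb limit, the 40% limit and local GC were chosen after seeing the data. The causes of these changes were not tested.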

Other observations

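Some of the longest gene deserts held no peak. Of 122 deserts of 1000 kb or more, 35 had none. The longest of these was the desert between *Cntnap5b* and *Cdh20* on chromosome 1, with 3678 kb of gene desert sequence. Next came those between *Slitrk5* and *Gpc5* on chromosome 14 (2756 kb) and between *Got2* and *Cdh8* on chromosome 8 (2719 kb). These deserts were named after their values were seen.

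The letters beside the AP-1 word were counted over the 567 words in gene desert peaks and the 4929 in the other intergenic peaks. Words in the form ATGAGTCAG (CTGACTCAT on the other strand) were the most frequent in gene desert peaks, with 72 (12.7%, beside 9.07%). The palindromic frame ATGACTCAT or ATGAGTCAT made up 10.8% beside 7.77%, and GTGACTCAC or GTGAGTCAC 5.82% beside 7.85%. Base composition differs between the classes, and its part in these shares was not tested.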
